A study of Mus musculus with 2 samples.

Results

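Receptor tyrosine kinases are single-pass membrane proteins that bind an extracellular ligand and carry a tyrosine kinase inside the cell. The 46 receptor genes described here were taken by symbol from a list and matched to the GENCODE M21 annotation, where each symbol met exactly 1 gene, out of 55536 annotated genes and 22015 protein-coding genes of the nuclear genome. They were listed by name, with earlier results of these data known. RNA of the whole adrenal gland was sequenced as total RNA in 2 male mice aged 8 to 10 months. Their strain, B6CASTF1/J, is a first-generation cross between C57BL/6J and CAST/EiJ. Replicate 2 was the gland of animal 4 and replicate 1 that of animal 2. No treatment, mutation or control was named, so the 2 animals form 1 group and share every condition that the labels give. Alleles inherited from CAST/EiJ were measured against the mm10 reference, which is of C57BL/6J.

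Binding of a ligand pairs the receptors, which then phosphorylate each other and recruit adaptor proteins that start the RAS, phosphoinositide 3-kinase and phospholipase C pathways. Sprouty and SPRED proteins, CBL ubiquitin ligases and the phosphatase DUSP6 limit that signal. In the adrenal gland, a dense capillary bed runs through the cortex, which makes steroids, and the medulla, which makes catecholamines. VEGF and angiopoietin receptors are known from its endothelium, and platelet-derived growth factor receptors from the cells around vessels and in connective tissue.

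The library of replicate 2 held 33987434 expected counts and that of replicate 1 held 29994901, so a count of 0 allowed up to 0.0883 CPM in replicate 2 and 0.10 CPM in replicate 1 (CPM is the count scaled to a common library total). The labelled tissue fitted its markers, since 8 of 8 cortical steroid genes and 10 of 10 chromaffin genes were detected, and no kidney gene of 8 was. The glands differed in other lists. The 8 adipocyte genes summed to 2079 TPM in replicate 2 and 240.5 TPM in replicate 1, and the 8 capsule and fibroblast genes to 306 and 180.1 TPM. In bulk RNA, fewer cells of a type and less RNA per cell cannot be told apart.

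Levels are given in TPM, a measure of transcript abundance that corrects counts for transcript length and so can be compared between genes. Detection meant at least 1 TPM in each gland. Of the 46 receptors, 35 were detected, which is 76.1%, beside 56.3% of nuclear protein-coding genes. Of these, 13 reached 10 TPM in both replicates and 22 lay lower. The median receptor stood at 2.92 TPM in replicate 2 and 3.08 TPM in replicate 1, a mean of 3.0 ± 0.120 (SD, n = 2), close to the median nuclear protein-coding gene at 3.02 TPM in replicate 2 and 2.53 TPM in replicate 1. All receptors together made up 573 TPM in replicate 2 and 561 TPM in replicate 1, or 0.15% and 0.153% of the TPM of nuclear protein-coding genes.

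A few genes carried most of this. Fgfr2, Insr, Fgfr1, Kdr and Flt1 were the 5 most abundant receptors and held 52.0% of receptor TPM in replicate 2 and 57.4% in replicate 1. By ligand family, the FGF receptors took 32.0 ± 0.184% of receptor TPM (SD, n = 2) and the VEGF receptors 16.3 ± 2.15%. The insulin family followed with 10.6 ± 1.72%, the B-class ephrin receptors with 8.12 ± 1.3% and the angiopoietin receptors with 7.47 ± 0.0581%. The plot of levels by family shows that several families held both abundant and scarce members.

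**Figure D1:**
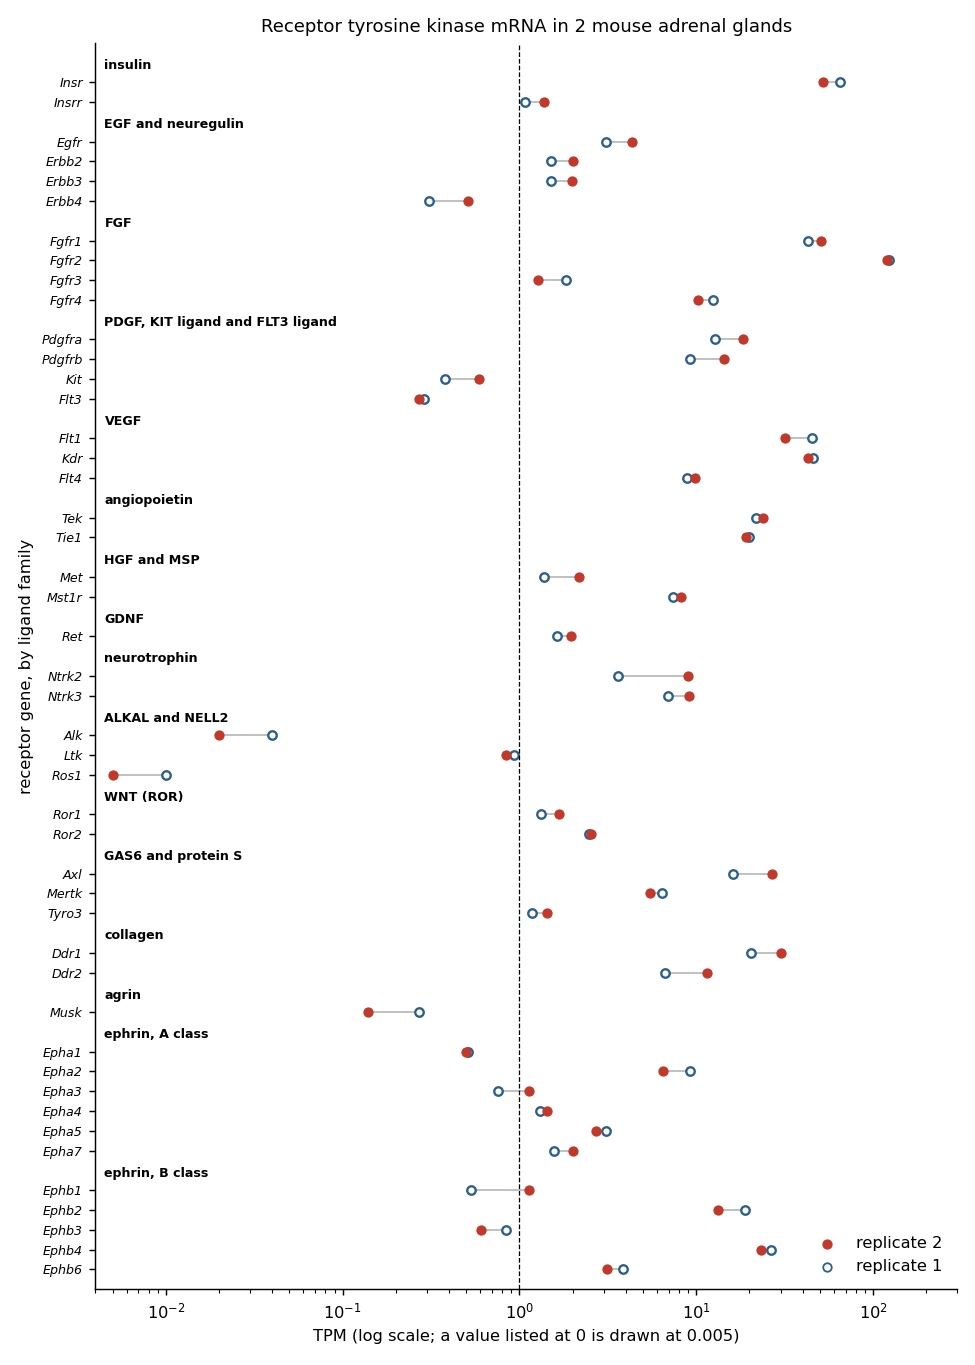
TPM of the 46 receptor genes (log axis) in replicate 2 (filled) and replicate 1 (open), grouped by ligand family, with a dashed line at 1 TPM. Fgfr2 stands farthest right at 120.5 TPM in replicate 2 and 123 TPM in replicate 1, and the genes for ALK and ROS1 lie farthest left.

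The fibroblast growth factor receptors were led by Fgfr2, whose gene runs from 130162451 to 133123350 on the minus strand of chromosome 7 in mm10. It had 120.5 TPM in replicate 2 and 123 TPM in replicate 1, a mean of 122 ± 2.03 (SD, n = 2), at the 98.1 percentile of nuclear protein-coding genes. Fgfr1 followed with 50.5 TPM in replicate 2 and 42.6 TPM in replicate 1. Fgfr4, known from liver, where it takes part in the control of bile acids, had 10.2 TPM in replicate 2 and 12.4 TPM in replicate 1. Fgfr3, which restrains growth of cartilage, had 1.28 TPM in replicate 2 and 1.83 TPM in replicate 1. The family therefore spanned nearly the whole range of detected receptors.

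An Fgfr2 transcript (ENSMUST00000153166.7), annotated as a target of nonsense-mediated decay, held 14.2 TPM in replicate 2 and 17.5 TPM in replicate 1. Transcripts with retained introns took 23.6% of Fgfr2 TPM in replicate 2 and 21.1% in replicate 1.

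Insr, the insulin receptor, ranked next to Fgfr2 with 52.1 TPM in replicate 2 and 65.0 TPM in replicate 1, a mean of 58.5 ± 9.12 (SD, n = 2). Coding transcripts ending at the stop codon of its longest annotated coding sequence, its main stop codon, made up 51.3% of its TPM in replicate 2 and 52.3% in replicate 1. Retained-intron transcripts took 28.6% and 33.2%. Its close relative Insrr, known as a sensor of alkaline fluid in the kidney, lay near the detection limit, with 1.38 TPM in replicate 2 and 1.08 TPM in replicate 1.

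The vascular receptors were abundant throughout. Kdr, the main signalling receptor for VEGF-A, had 43.0 TPM in replicate 2 and 46 TPM in replicate 1. Flt1, which binds VEGF-A tightly and signals weakly, had 31.9 TPM in replicate 2 and 45.2 TPM in replicate 1. Flt4, the receptor of lymphatic vessels, had 9.79 TPM in replicate 2 and 8.83 TPM in replicate 1. Both angiopoietin family members stood close to each other. Tek, the angiopoietin receptor TIE2, had 23.8 TPM in replicate 2 and 21.8 TPM in replicate 1, and its partner Tie1 had 19.2 TPM in replicate 2 and 19.9 TPM in replicate 1. The 8 endothelial marker genes summed to 357 TPM in replicate 2 and 339 TPM in replicate 1.

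Flt1 also makes a secreted receptor without membrane anchor or kinase, which traps VEGF. The annotated soluble transcript (ENSMUST00000110529.5) shares 1972 coding bases with the full-length one (ENSMUST00000031653.11) and then reads on into the adjoining intron, where it stops after 95 more bases. The bases around that point are shown for both, from the GENCODE M21 transcripts as all sequences here, on the minus strand of chromosome 5, with the shared end in lower case and the first bases of each form's own coding part in capitals. The capitals lie at chr5:147639165-147639224 for the soluble form and at chr5:147634464-147634523 for the full-length form in mm10.
Flt1 soluble: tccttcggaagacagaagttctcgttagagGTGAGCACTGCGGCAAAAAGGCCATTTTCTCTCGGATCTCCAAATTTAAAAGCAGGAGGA
Flt1 full-length: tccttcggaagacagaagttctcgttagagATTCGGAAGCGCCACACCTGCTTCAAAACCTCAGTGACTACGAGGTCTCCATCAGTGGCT

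Soluble Flt1 held 8.5 TPM in replicate 2 and 14.1 TPM in replicate 1, which was 26.7% and 31.2% of Flt1. The full-length form held 18.1 TPM in replicate 2 and 21.9 TPM in replicate 1. The kallisto-format table gave close shares, with 27.0% in replicate 2 and 32.9% in replicate 1 for soluble Flt1.

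Ephrin receptors, which bind ligands tethered to neighbouring cells, differed by class. Of the B class, Ephb4, the venous receptor for ephrin-B2, had 23.2 TPM in replicate 2 and 26.5 TPM in replicate 1. Ephb2 had 13.2 TPM in replicate 2 and 18.9 TPM in replicate 1. Ephb6, whose kinase domain is inactive, had 3.12 TPM in replicate 2 and 3.86 TPM in replicate 1. Its transcript with the longest coding sequence went the other way, with 1.96 TPM in replicate 2 and 1.45 TPM in replicate 1. Ephb1 reached the detection level in replicate 2 alone, at 1.14 TPM against 0.530 TPM in replicate 1, and Ephb3 stayed below it with 0.610 TPM in replicate 2 and 0.840 TPM in replicate 1.

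The A class was lower, at 14.2 TPM summed in replicate 2 and 16.4 TPM in replicate 1, against 41.3 and 50.7 TPM for the B class. Epha2 led it with 6.46 TPM in replicate 2 and 9.22 TPM in replicate 1. Epha5 had 2.71 TPM in replicate 2 and 3.07 TPM in replicate 1, of which retained-intron transcripts took 54.6% and 61.7%. Epha7 and Epha4, both known from the developing nervous system, were lower still. Epha7 had 2.01 TPM in replicate 2 and 1.56 TPM in replicate 1, and Epha4 1.43 and 1.3 TPM. Epha3 crossed 1 TPM only in replicate 2, at 1.14 TPM against 0.760 TPM in replicate 1, and Epha1 had 0.50 TPM in replicate 2 and 0.510 TPM in replicate 1.

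The 2 PDGF receptors and the 2 collagen receptors lay above the receptor median of 2.92 TPM in replicate 2 and 3.08 TPM in replicate 1, and all 4 were higher in replicate 2. Pdgfra, a marker of fibroblasts, had 18.4 TPM in replicate 2 and 12.8 TPM in replicate 1. Pdgfrb, known from pericytes, had 14.3 TPM in replicate 2 and 9.19 TPM in replicate 1. Among the collagen receptors, Ddr1, known from epithelia, had 30.3 TPM in replicate 2 and 20.5 TPM in replicate 1. Ddr2, known from fibroblasts, had 11.4 TPM in replicate 2 and 6.62 TPM in replicate 1.

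The receptors for GAS6 and protein S recognise phosphatidylserine on dying cells through those ligands. Axl had 26.8 TPM in replicate 2 and 16.1 TPM in replicate 1. Mertk, used by macrophages to clear dead cells, had 5.46 TPM in replicate 2 and 6.41 TPM in replicate 1. Tyro3 had 1.44 TPM in replicate 2 and 1.18 TPM in replicate 1. The family's order was thus the same in both glands. The macrophage list of 8 genes summed to 320 TPM in replicate 2, which was 1.59 times its sum in replicate 1.

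The epidermal growth factor family was low in both glands. Egfr had 4.33 TPM in replicate 2 and 3.10 TPM in replicate 1. Erbb2, which binds no ligand and serves as partner, had 2.00 TPM in replicate 2 and 1.51 TPM in replicate 1. Erbb3, a neuregulin receptor with little kinase activity of its own, had 1.98 TPM in replicate 2 and 1.5 TPM in replicate 1. The last member, Erbb4, was not detected, with 0.510 TPM in replicate 2 and 0.310 TPM in replicate 1.

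Among the other growth factor receptors, Mst1r, the receptor for macrophage-stimulating protein, had 8.20 TPM in replicate 2 and 7.38 TPM in replicate 1. Met, the receptor for hepatocyte growth factor, had 2.16 TPM in replicate 2 and 1.38 TPM in replicate 1. Retained-intron transcripts took 44.8% of Mst1r TPM in replicate 2 and 30.6% in replicate 1, on few of its 672 and 695 counts. Of these transcripts, 1 had 12.0 estimated counts in replicate 2 and 0 in replicate 1, and another had 30.8 and 31.6. The WNT5A receptors Ror1, at 1.67 TPM in replicate 2 and 1.33 TPM in replicate 1, and Ror2, at 2.55 and 2.47 TPM, were just above the limit. Ret, which sympathoadrenal cells use with GFRA co-receptors to sense GDNF-family ligands, had 1.96 TPM in replicate 2 and 1.63 TPM in replicate 1.

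Egfr and Ret each divided between coding forms with different ends. The short Egfr transcript (ENSMUST00000102884.9) leaves the full-length one (ENSMUST00000020329.12) after 1925 shared coding bases and stops 43 bases on, ahead of the membrane-spanning segment. Of Ret, the annotated forms are those known as RET9 (ENSMUST00000088790.8) and RET51 (ENSMUST00000032201.7), which keep the kinase and differ in the tail. In both short Egfr and RET9 the own part adjoins the last shared exon, as in soluble Flt1. The sequences are on the plus strand of chromosome 11 for Egfr and the minus strand of chromosome 6 for Ret, with the shared end in lower case and the own part, up to 60 bases, in capitals.
Egfr short: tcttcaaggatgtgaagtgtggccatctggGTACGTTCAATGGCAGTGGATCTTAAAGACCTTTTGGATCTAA
Egfr full-length: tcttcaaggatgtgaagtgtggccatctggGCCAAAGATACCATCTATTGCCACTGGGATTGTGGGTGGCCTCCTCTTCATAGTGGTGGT
Ret, RET9: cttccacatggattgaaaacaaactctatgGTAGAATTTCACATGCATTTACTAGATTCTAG
Ret, RET51: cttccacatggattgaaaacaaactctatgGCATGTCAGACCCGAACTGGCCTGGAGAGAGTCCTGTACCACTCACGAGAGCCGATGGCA

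The capitals lie at chr11:16887186-16887228 for short Egfr, chr11:16889913-16889972 for full-length Egfr, chr6:118155256-118155287 for RET9 and chr6:118153951-118154010 for RET51. Short Egfr took 44.6% of Egfr TPM in replicate 2 and 30.1% in replicate 1, and full-length Egfr took 44.6% and 42.7%. Short Egfr rested on 165 estimated counts in replicate 2 and 74.3 in replicate 1, and full-length Egfr on 587 and 375. An Egfr transcript without a coding part took 9.93% in replicate 2 and 27.2% in replicate 1, on 4.51 and 8.16 estimated counts. The kallisto-format table put short Egfr at 35.4% in replicate 2 and 23.5% in replicate 1. RET9 took 62.2% of Ret TPM in replicate 2 and 54.0% in replicate 1, and RET51 the rest, 37.8% and 46%. Ret rested on 281 counts in replicate 2 and 221 counts in replicate 1, so its split is less certain than that of Flt1, with 5590 and 7098 counts.

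Of the neurotrophin receptors, Ntrk2, the BDNF receptor TRKB on chromosome 13, had 8.93 TPM in replicate 2 and 3.62 TPM in replicate 1. Ntrk3, the neurotrophin-3 receptor TRKC on chromosome 7, had 9.15 TPM in replicate 2 and 6.94 TPM in replicate 1. Both genes make truncated receptors that cross the membrane but lack the kinase. The form known as TRKB.T1 (ENSMUST00000109838.9) leaves the kinase form of Ntrk2 (ENSMUST00000079828.6) after 1393 shared coding bases and ends after 38 of its own. Truncated Ntrk3 (ENSMUST00000039438.8) leaves a kinase form (ENSMUST00000039431.13) after 1585 shared coding bases and ends after 254 of its own. Capitals again mark the start of the own part, on the plus strand for Ntrk2 and the minus strand for Ntrk3.
Ntrk2, TRKB.T1: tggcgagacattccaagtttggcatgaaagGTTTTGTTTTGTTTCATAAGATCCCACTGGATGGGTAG
Ntrk2, kinase form: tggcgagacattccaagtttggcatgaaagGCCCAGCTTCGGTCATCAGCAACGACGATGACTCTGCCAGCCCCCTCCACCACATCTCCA
Ntrk3 truncated: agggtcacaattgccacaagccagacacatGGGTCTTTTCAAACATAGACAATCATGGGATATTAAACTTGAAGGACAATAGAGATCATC
Ntrk3, kinase form: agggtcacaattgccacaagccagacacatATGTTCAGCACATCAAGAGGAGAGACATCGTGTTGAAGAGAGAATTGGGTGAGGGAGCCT

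The capitals lie at chr13:58932023-58932060 for TRKB.T1, chr13:58985802-58985861 for the kinase form of Ntrk2, chr7:78304367-78304426 for truncated Ntrk3 and chr7:78260355-78260414 for its kinase form. The 2 Ntrk2 transcripts with the TRKB.T1 stop together held 6.56 TPM in replicate 2 and 2.05 TPM in replicate 1, or 73.5% and 56.6% of the gene. The 2 transcripts with the kinase form's stop held 0.170 TPM in replicate 2 and 0.15 TPM in replicate 1, or 1.90% and 4.14%. All coding transcripts with another stop took 92.7% in replicate 2 and 91.2% in replicate 1. By estimated counts, the TRKB.T1 stop had 896 in replicate 2 and 329.6 in replicate 1, and the kinase form's stop 39 and 35. In both glands Ntrk2 RNA was thus mostly of the form without a kinase, and the 2 glands were alike in the low level of the kinase form.

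For Ntrk3, the truncated form held 59.3% of TPM in replicate 2 and 51.4% in replicate 1, and transcripts with the kinase form's stop 19.3% and 12.6%. The kallisto-format table put truncated Ntrk3 lower, at 37.6% in replicate 2 and 41.1% in replicate 1.

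Across the 35 detected receptors, the median share of TPM in coding transcripts with the stop codon of the longest form was 78.1% in replicate 2 and 78.8% in replicate 1. A set of 8 genes had at least 10% in coding transcripts with another stop, in both replicates and both quantifications, a limit set after the values were seen. They were Ntrk2, Ntrk3, Flt1, Egfr and Ret, described above, and Epha5, Epha7 and Ephb6. A truncated form of Epha7 without the kinase (ENSMUST00000108194.8) held 28.7% of Epha7 in replicate 2 and 41.9% in replicate 1, on 38.5 and 40.3 estimated counts. The kallisto-format table gave 16.4% in replicate 2 and 30.6% in replicate 1. The other stop of Epha5 belongs to forms with up to 96.7% of the longest coding sequence, and that of Ephb6 to a model with 137 coding bases. That Ephb6 model rested on 12.5 estimated counts in replicate 2 and 24 in replicate 1, against 217 and 149 for the longest form. The plot of stop codons sets these 8 genes side by side.

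**Figure D2:**
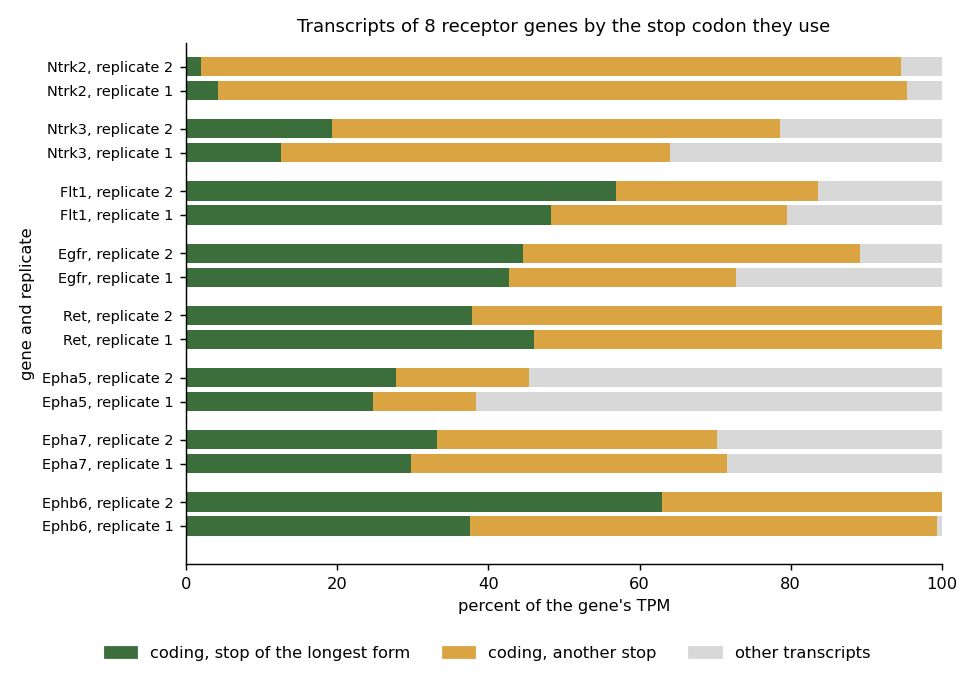
Percent of each gene's TPM in coding transcripts with the stop codon of the longest form (green), in coding transcripts with another stop (yellow) and in other transcripts (grey), with replicate 2 above replicate 1 for each gene. Ntrk2 has the smallest green part, 1.90% in replicate 2 and 4.14% in replicate 1.

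Several other receptors were below the detection limit. Kit, known from mast cells, had 0.590 TPM in replicate 2 and 0.380 TPM in replicate 1, on 88 and 38 counts. Of 7 mast cell genes, 1 was detected, Hdc, with 97 counts in replicate 2 and 139 in replicate 1. Below the limit, Cpa3, Mcpt4, Tpsb2 and Cma1 had 46, 19, 24 and 23 counts in replicate 2. In replicate 1 these 4 genes had 7, 4, 9 and 2 counts. Fcer1a was at 0 counts in both glands. Flt3, known from dendritic cell precursors, had 0.270 TPM in replicate 2 and 0.290 TPM in replicate 1. Ltk and Alk, which share the ALKAL ligands, had 0.840 and 0.0200 TPM in replicate 2 and 0.930 and 0.0400 TPM in replicate 1. Musk, which organises the muscle side of the neuromuscular junction, had 0.140 TPM in replicate 2 and 0.270 TPM in replicate 1. Ros1, the NELL2 receptor of the epididymis, rested on 1 count in each replicate.

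The 2 glands were then compared by counts scaled for library size, as fold of replicate 2 over replicate 1 with an exact 95% interval that covers counting error only. With 1 animal on each side there is no test and no p-value. A gene was called where its mean was at least 100 counts, its fold at least 2 and its interval away from 1. Ntrk2 alone of the 35 receptors with that many counts was called higher in replicate 2, and no receptor was called lower, beside 2.39% of 12853 nuclear genes called higher and 1.15% called lower. Ntrk2 had 1057 counts in replicate 2 and 444 in replicate 1, giving a fold of 2.03 (95% interval 1.81 to 2.27). Just under the limit, Met had 351 counts in replicate 2 and 153 in replicate 1, giving a fold of 1.96 (1.61 to 2.38). Met passed 2-fold when counts were scaled by library totals or by spike-in totals instead. At the low end, Fgfr3 had 103 counts in replicate 2 and 173 in replicate 1, giving a fold of 0.508 (0.394 to 0.652).

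**Figure D3:**
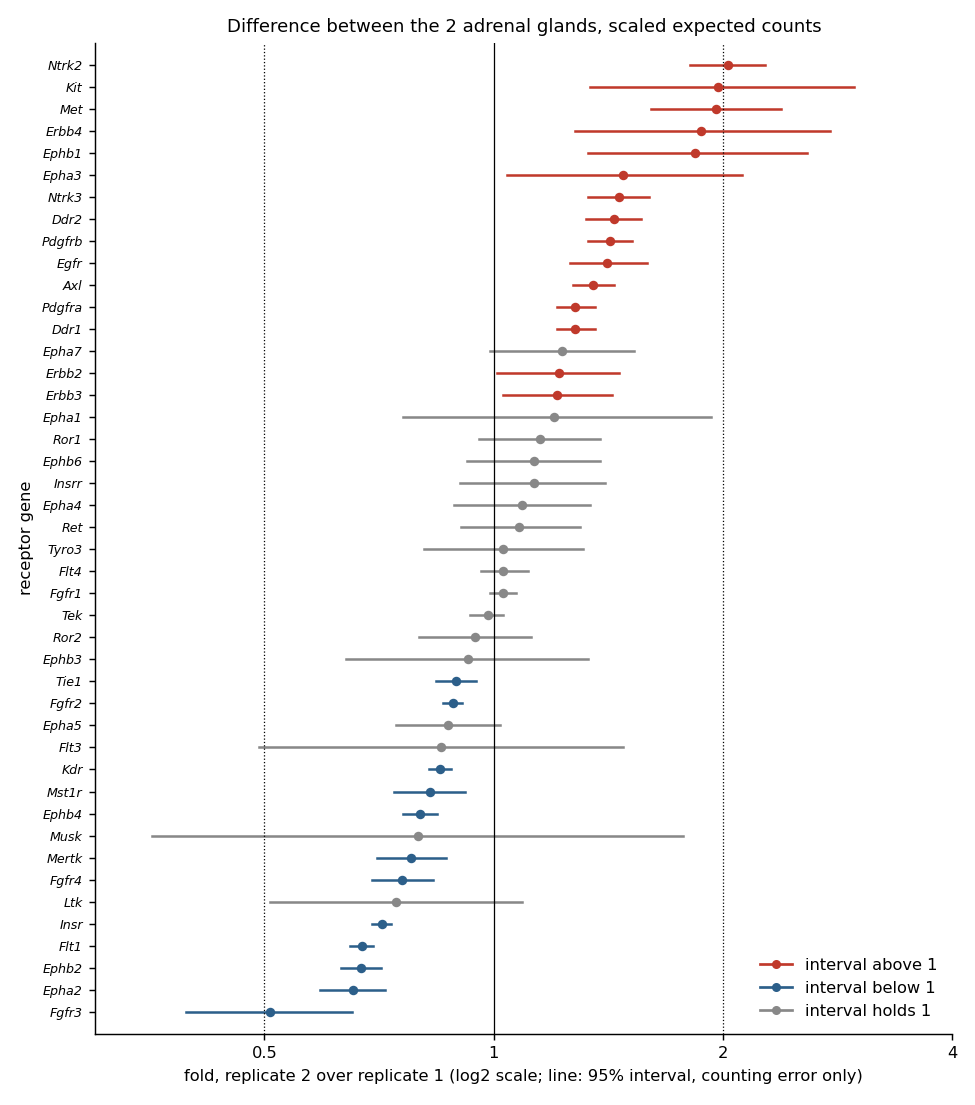
Fold of replicate 2 over replicate 1 (log2 axis) for the 44 receptors with a mean of at least 10 counts, with 95% intervals that cover counting error only and dotted lines at 2-fold. Intervals lie above 1 for 15 genes (red), below 1 for 12 (blue) and hold 1 for 17 (grey).

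Smaller differences went both ways. Of the 44 receptors with at least 10 counts, 15 had intervals above 1, 12 below 1 and 17 held 1. Among the 18181 nuclear genes of that depth, 24.9% had intervals above 1 and 24.9% below 1. The comparison is not matched for depth, and more counts narrow an interval. At least 100 counts were reached by 35 of the 44 receptors and by 12853 of the 18181 nuclear genes. The receptors had a median log2 ratio of 0.07 against 0.00 for the 18181 nuclear genes. The median size of the log2 ratio was 0.27 for these receptors and 0.18 for the nuclear genes. All 4 epidermal growth factor receptors were on the higher side, with folds between 1.21 for Erbb3 and 1.87 for Erbb4. So were Pdgfra at 1.28 (1.21 to 1.36), Pdgfrb at 1.42 (1.33 to 1.52), Ddr1 at 1.28 (1.21 to 1.36), Ddr2 at 1.44 (1.32 to 1.56) and Axl at 1.35 (1.27 to 1.44). Ntrk3 stood at 1.46 (1.33 to 1.60).

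On the lower side were Insr at 0.713 (0.693 to 0.734), Flt1 at 0.671 (0.648 to 0.695), Ephb2 at 0.669 (0.630 to 0.711) and Epha2 at 0.653 (0.592 to 0.721). Mertk at 0.780 (0.703 to 0.866) and Fgfr4 at 0.759 (0.693 to 0.832) were also lower in replicate 2. Fgfr1 at 1.03 (0.988 to 1.07), Flt4 at 1.03 (0.961 to 1.11) and Tek at 0.982 (0.932 to 1.03) could not be told from equality at this depth. Mst1r was higher in replicate 2 by TPM but lower by scaled counts, with a fold of 0.824 (0.740 to 0.918). Its TPM also depends on how reads were divided among transcripts of different length. A retained-intron transcript with 12.0 estimated counts in replicate 2 and 0 in replicate 1 gave 1.63 and 0 of its TPM.

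The receptors' ligands and partners were read from 14 lists of 110 genes. Of these, 74 were detected, or 67.3%, beside 56.3% of nuclear protein-coding genes. They were 31 of 63 ligands (49.2%), 10 of 13 co-receptors, 18 of 18 adaptors and early signalling proteins and 15 of 16 feedback inhibitors. Of the 73 with at least 100 counts, 4 were called higher in replicate 2 and none lower, beside 2.39% and 1.15% of nuclear genes of that depth. The plot of receptor and ligand sums compares the families.

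VEGF ligands were the most abundant. Vegfa, the main angiogenic factor, had 200.3 TPM in replicate 2 and 296 TPM in replicate 1, above each of its receptors in both glands, at a fold of 0.638 (0.621 to 0.655). Vegfb had 44.4 TPM in replicate 2 and 28.9 TPM in replicate 1, and Vegfd, a ligand of FLT4, 13.5 and 6.87 TPM. Angiopoietin mRNA was scarce beside its receptors, with 1.04 TPM in replicate 2 and 1.06 TPM in replicate 1 for Angpt1, the activating ligand of TIE2. Angpt2, which opposes it, had 1.03 TPM in replicate 2 and 0.760 TPM in replicate 1, and Angpt4 0.40 and 0.420 TPM.

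The FGF list summed to 54.6 TPM in replicate 2 and 31.5 TPM in replicate 1, below its receptors at 182 and 180.2 TPM. The list includes members that stay inside the cell, among them Fgf11 and Fgf13, so its sum is not of secreted ligands alone. Fgf1, which binds all FGF receptors, had 20.6 TPM in replicate 2 and 10.7 TPM in replicate 1, giving a fold of 1.69 (1.56 to 1.84). Fgf11, a member that stays inside the cell, had 10.8 TPM in replicate 2 and 8.96 TPM in replicate 1. Fgf9, a secreted ligand, had 6.12 TPM in replicate 2 and 5.32 TPM in replicate 1. Fgf10, a ligand of FGFR2, had 199 counts in replicate 2 and 30 in replicate 1, giving a called fold of 5.66 (3.84 to 8.60). Fgf13, which like Fgf11 stays inside the cell, had 303 counts in replicate 2 and 78 in replicate 1, giving a called fold of 3.31 (2.57 to 4.30).

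Neuregulin and EGF-like ligands were led by Tgfa, with 7.53 TPM in replicate 2 and 6.87 TPM in replicate 1. Nrg4, an ERBB4 ligand known as a secreted product of brown fat, had 7.17 TPM in replicate 2 and 1.28 TPM in replicate 1. On 359 counts in replicate 2 and 58 in replicate 1, it had a called fold of 5.28 (3.99 to 7.09). Nrg3 had 2.62 TPM in replicate 2 and 3.59 TPM in replicate 1. Areg and Epgn were at 0 counts in both.

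Other ligand lists varied in how they compared with their receptors. Gas6 had 58.6 TPM in replicate 2 and 51.8 TPM in replicate 1 and Pros1, protein S, 32.9 and 27.4 TPM, more than Axl, Mertk and Tyro3 together. All 6 ligands of the PDGF, KIT and FLT3 receptors were detected, and they summed to 70.5 TPM in replicate 2 and 62.7 TPM in replicate 1, above those receptors at 33.6 and 22.7 TPM. The 3 with the highest means were Pdgfb at 16.2 TPM in replicate 2 and 18.5 TPM in replicate 1, Pdgfa at 17.3 and 16.7 TPM, and Flt3l, the FLT3 ligand, at 17.6 and 12.6 TPM. Among ephrins, Efnb1 had 21.7 TPM in replicate 2 and 25.6 TPM in replicate 1, Efnb2 9.63 and 12.4 TPM, and Efna1 10.4 and 8.35 TPM. Wnt5a, a ROR ligand, had 22.9 TPM in replicate 2 and 26.0 TPM in replicate 1. Agrn, agrin, had 19.3 and 14.3 TPM, and Nell2 1.78 and 1.86 TPM.

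Neurotrophins and GDNF-family ligands were not detected, at 0 of 3 and 0 of 5. Ntf3 was the highest neurotrophin, with 1.19 TPM in replicate 2 and 0.920 TPM in replicate 1, while Bdnf, the main ligand of TRKB, had 2 counts in replicate 2 and 0 in replicate 1. Ntf5 had 3 counts in replicate 2 and 1 in replicate 1. Of the GDNF list, Nrtn had 1.33 TPM in replicate 2 and 0.460 TPM in replicate 1, Gdf15 0.960 and 0.50 TPM, and Artn 0.200 and 0.420 TPM. Hgf, the MET ligand, had 2.88 TPM in replicate 2 and 1.90 TPM in replicate 1, and Mst1, the MST1R ligand, 1 count in replicate 2 and 0 in replicate 1.

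**Figure D4:**
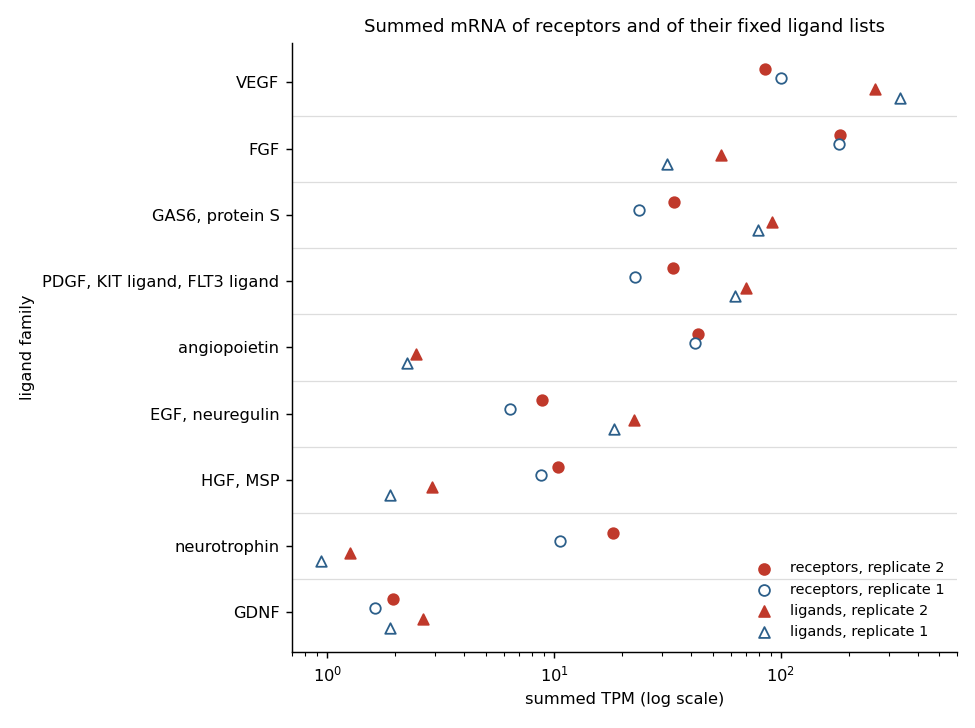
Summed TPM (log axis) of receptors (circles) and of the ligand lists (triangles) in 9 families, with replicate 2 filled and replicate 1 open. The FGF ligand list includes members that stay inside the cell. Ligand sums exceed receptor sums for VEGF in both glands (in replicate 2, 261 TPM of ligands against 84.7 TPM of receptors) and lie far below them for the angiopoietins.

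Co-receptors were led by Nrp1, the neuropilin that binds VEGF-A beside KDR, with 50.2 TPM in replicate 2 and 40.1 TPM in replicate 1. Gpc1, a heparan sulfate proteoglycan, had 26.4 TPM in replicate 2 and 31.5 TPM in replicate 1, and Nrp2 20.1 and 18.6 TPM. Of the GFRA co-receptors of RET, Gfra2 was highest, with 394 counts in replicate 2 and 557 in replicate 1, giving a fold of 0.603 (0.529 to 0.687). Klb, the co-receptor for FGF21, had 177 counts in replicate 2 and 11 in replicate 1, and its mean was under the 100 counts needed for a call.

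The signalling core was present in full. Grb2 had 60.8 TPM in replicate 2 and 52.2 TPM in replicate 1, Ptpn11, the phosphatase SHP2, 52.5 and 51.8 TPM, and Shc1 50.6 and 44.4 TPM. Frs3, an FGF receptor adaptor, had 170 counts in replicate 2 and 66 in replicate 1, giving a called fold of 2.20 (1.64 to 2.96). Pik3r1, a regulatory subunit of phosphoinositide 3-kinase, had 31.3 TPM in replicate 2 and 18.2 TPM in replicate 1, giving a fold of 1.66 (1.59 to 1.74), under the limit.

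Among feedback inhibitors, Spred1 had 52.7 TPM in replicate 2 and 41.6 TPM in replicate 1, and Ptprb, the endothelial phosphatase that acts on TIE2, 23.4 and 22.4 TPM. Dusp6, the ERK phosphatase, had 33.0 TPM in replicate 2 and 52.4 TPM in replicate 1, giving a fold of 0.598 (0.566 to 0.631). Spry4 had a fold of 0.533 (0.477 to 0.596) and Spry2 0.694 (0.630 to 0.763), both lower in replicate 2. Spred1 was higher in replicate 2, at 1.22 (1.18 to 1.26). Of the 16 inhibitors, 7 had intervals below 1, 3 above 1 and 6 held 1. Of nuclear genes with at least 10 counts, 24.9% lay below 1 and 24.9% above. These shares are not matched for depth, since 15 of the 16 inhibitors had at least 100 counts and more counts narrow an interval.

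Marker lists moved between the same 2 glands, and their part in the differences of receptors and ligands was not tested. All 8 adipocyte genes were called higher in replicate 2, as were 6 of 7 brown adipocyte genes, which summed to 291 TPM in replicate 2 and 27.4 TPM in replicate 1. Of the 8 capsule and fibroblast genes, 4 were called higher, beside the higher folds of Pdgfra, Pdgfrb and Ddr2. The smooth muscle and pericyte list divided, with Cspg4 and Kcnj8 called higher and Acta2 and Tagln called lower. Cortical steroid genes summed to 18708 TPM in replicate 2 and 22912 TPM in replicate 1, and chromaffin genes to 2342 and 3235 TPM, beside the lower fold of Insr. The endothelial list summed to 357 TPM in replicate 2 and 339 TPM in replicate 1, beside the lower fold of Flt1. The Schwann and sustentacular list, 4 of 8 genes detected, summed to 27.3 TPM in replicate 2 and 13.7 TPM in replicate 1, beside Ntrk2. Within that list S100b had 13.2 TPM in replicate 2 and 1.42 TPM in replicate 1, while Sox10 had 40 and 45 counts, a fold of 0.758 (0.482 to 1.19) whose interval held 1.

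**Figure D5:**
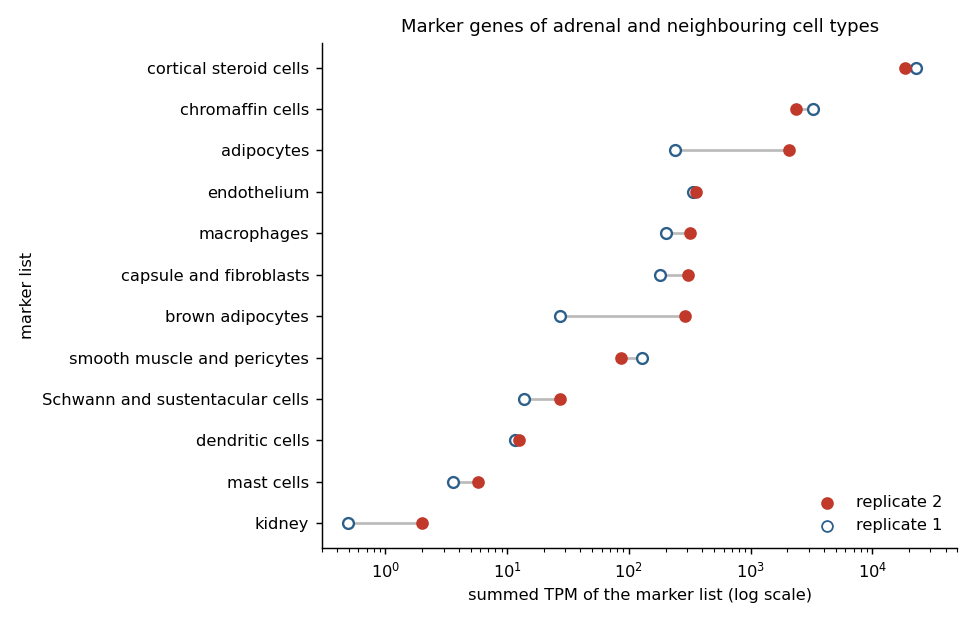
Summed TPM (log axis) of 12 marker lists in replicate 2 (filled) and replicate 1 (open). The adipocyte lists lie farthest apart, at 2079 TPM in replicate 2 and 240.5 TPM in replicate 1 for adipocytes, while the endothelial list differs little, at 357 and 339 TPM.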

How the data were processed

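Total RNA-seq of adrenal gland was read from the files of 2 libraries, 1 per animal. Each was made from 300 ng of RNA with a strand-keeping kit and ERCC spike-ins, per the labels. In the gene tables the authors deposited, values are expected counts (estimated, not normalized) with RSEM's column names, per the file headers. The authors also deposited TPM, computed over all entries of each table. Transcript tables, also deposited, add each transcript's percent of its gene's TPM. Another deposited transcript table is in kallisto's format, per the file headers. The assembly is mm10 with GENCODE M21. Not given in the sources used here are the versions of the aligner and quantifiers and whether counting used strand.

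All 55536 annotated IDs matched GENCODE M21, while 96 ERCC entries, 26248 entries named by a bare number and 1 other entry were left out of library sizes. Expected counts were rounded to whole numbers for folds. Library scaling used edgeR 4.0.16 in R 4.3.3 (TMM, on genes averaging 10 counts or more). Size factors of DESeq2 1.42.0 served as an alternative. Log2 ratios, replicate 2 over replicate 1, were taken of CPM + 1, so that differences of sparsely counted genes are understated. Intervals are exact conditional binomial intervals and cover counting error only, since reads that carry no molecular identifier do not each stand for a molecule. With 1 animal on each side no model had residual degrees of freedom, and no p-value was computed. The 2 libraries differed beyond sampling noise (chi-square over its degrees of freedom, 53.2 across 18181 genes). The calculation of calls was tested on simulated counts with sampling noise alone and changes larger than the call limit. That test does not cover the wider spread between these libraries or folds near the limit.

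The members, the gene lists and the rule for named genes were chosen with earlier results of these data known. The rule names every receptor, and of each pathway list the 3 genes with the highest mean TPM and any called gene. Other pathway genes named in the text (Klb, Gfra2, Pik3r1, Spry4, Spry2, Areg, Epgn) were picked after their values were seen. The rule also asked for stretches of protein, which are not used here, and a further result is not reported here. Transcript sequences and coding parts were read from GENCODE M21.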

Additional observations from a re-analysis of the deposited data

How the results depend on the processing

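Detection of receptors held near its count under most settings. A limit of 5 TPM left 20 of 46 receptors, against 35 at 1 TPM, and a limit of 0.5 TPM gave 40. Either replicate alone gave 35 to 37 receptors and 74 to 83 pathway genes. Rescaling TPM to the nuclear protein-coding genes multiplied levels by 2.62 in replicate 2 and 2.73 in replicate 1 by construction, gave 41 detected receptors and moved the median receptor to 8.04 TPM. The kallisto-format tables gave 33 detected receptors and a median of 2.60 TPM, and put the median share of transcripts with the main stop codon at 70.3% against 78.4%; the cause was not tested.

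Ntrk2 was called higher under all 8 alternatives run for that count. Lower count limits and the 1.5-fold limit only loosen the rule, so they could not have lost it. The other scalings of the same counts had a scale of replicate 2 over replicate 1 of 1.108 to 1.167. All lie under the 1.173 of the main setting, so each raised every fold. A 1.5-fold limit gave 2 receptors higher (Met and Ntrk2) and 2 lower (Fgfr3 and Epha2). Scaling by total counts or by ERCC totals gave 2 receptors higher, Met joining Ntrk2. No receptor was called lower under the other 7 alternatives. The other scalings of the same counts, which raised every fold, could not have added a lower call. The median log2 ratio of receptors lay between 0.04 and 0.15 under the 7 alternatives run, and the median of all nuclear genes moved by at most 0.07. Computing TMM factors over all genes was chosen after seeing the data and changed no call. No paired analysis was possible because the labels give a single group. Against the single-receptor log2 ratios, ERCC totals moved 7 of 46 and total counts 3 beyond their counting interval, and kallisto-format levels moved 20 of 46 beyond the spread of the replicates. Under about 100 counts, as for Kit, Erbb4 and Ephb1, folds near 2 have wide counting intervals.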

Other observations

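Several receptor genes are neighbours in the mm10 genome and differed in level all the same. On chromosome 5, Pdgfra, Kit and Kdr follow each other with gaps of 377 kb and 276 kb and no protein-coding gene between them. Pdgfra had 18.4 TPM in replicate 2 and 12.8 TPM in replicate 1, Kit 0.590 and 0.380 TPM, and Kdr 43.0 and 46 TPM. On the same chromosome Flt3, at 0.270 TPM in replicate 2 and 0.290 TPM in replicate 1, lies 161 kb from Flt1, at 31.9 and 45.2 TPM. On chromosome 2, Ltk and Tyro3 lie 37.3 kb apart, with 0.840 and 1.44 TPM in replicate 2 and 0.930 and 1.18 TPM in replicate 1.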
